A study of Mus musculus with 908 samples.

Results

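The genes described here were the 42 members of glutathione metabolism and of the target set of the transcription factor NRF2 that had been listed by symbol, out of 46517 gene rows in the deposited tables. All 42 symbols were found in the tables, each as 1 row, and all 42 matched a protein-coding gene of the mouse annotation, on 15 chromosomes. They were grouped by role: NRF2 (Nfe2l2) and its inhibitor (2 genes), glutathione synthesis, reduction and export (6), glutathione transferases (13), glutathione peroxidases (4), thioredoxin, peroxiredoxin, quinone, haem and aldehyde enzymes (8), NADPH supply (5), and ferritin, superoxide dismutase and catalase (4).

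Glutathione is a cysteine-containing tripeptide that donates electrons to peroxidases and is joined to reactive compounds by glutathione transferases. NRF2 is held low by KEAP1 and, when KEAP1 is modified by electrophiles or oxidants, binds antioxidant response elements in the promoters of many of these genes. In skin, NRF2 and its targets are known from the defence of keratinocytes against oxidants and from barrier formation in the upper epidermal layers.

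TPM values came from Smart-seq2, a full-length RNA method, run on squamous carcinoma cells of mouse skin that had been sorted into plates at 1 cell per well. Cells after transfer came from tumours that had undergone adoptive cell transfer, an immunotherapy with infused immune cells. Their strain was TRE-OVA;TRE-HrasG12V:PGK-rtTA3P2AmCherry, with inducible ovalbumin, inducible activated Hras and an mCherry that by the strain name is driven by the PGK promoter, and they were gated on mCherry without a gate on integrin α6. The other 4 groups were sorted before transfer from tumours of the strain TRE-HrasG12V;SBE-mCherry-PGK-rtTA3, in which mCherry is driven by SMAD binding elements and so reports TGF-beta signalling. Reporter-positive cells were gated as α6+, mCherry+, CD34+ and CD44+. CD44+ reporter-negative cells kept α6 and CD44 but were mCherry- and CD34-. CD44-negative α6+ cells carried α6 as the only one of these 4 markers, and α6-negative cells carried none. All mice were of mixed sex and aged between postnatal days 60 and 90, and every gate excluded CD45, CD117, CD140a and CD31. Because strain, reporter, gate and therapy all differ between the cells after transfer and the other groups, these cannot be told apart.

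Libraries with at least 2000 detected rows (TPM of at least 1, spike-ins left out) were kept, which gave 87 and 90 cells after transfer on plates OT2 and OT_B, 32 and 73 reporter-positive cells on CSC2 and CSC1, 15 CD44+ reporter-negative cells, 91 cells of the CD44-negative α6+ gate and 43 of the α6-negative gate. Median detected rows were 6657, 7760, 7222, 6810 and 5521 in that order. The labels named no animal or culture, so each group was 1 sample: no test was made between groups, and ranges are over cells. Many cells had been sequenced more than once under different labels. Of the reporter-positive libraries, 27 of 32 on CSC2 and 72 of 73 on CSC1 matched a library of plates OT_D or OT_C that is labelled after transfer, as did all 15 CD44+ reporter-negative libraries. It is not known here which of the labels applies. OT_C, OT_D and the repeat plates OT1 and OT_A were left out of the group after transfer. The keratinocyte marker list led in all cells after transfer, all reporter-positive and all CD44-negative α6+ cells, in 12 of 15 CD44+ reporter-negative cells and in 27 of 43 α6-negative cells, whose other 16 were led by fibroblast (13) or pericyte (3) markers. Xist without Y-linked transcripts was found in 12 of 15 CD44+ reporter-negative cells and 42 of 91 CD44-negative α6+ cells, and in none of the cells after transfer, reporter-positive or α6-negative cells.

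Differences between groups are log2 ratios of the mean TPM plus 1, and a gene was counted as higher or lower where this ratio passed 2-fold, among rows with a mean of at least 1 TPM in either group. TPM is a share of a library's transcripts corrected for length, it keeps no read depth, and the ratio understates differences of weakly expressed genes. A mean over cells combines how many cells express a gene with how much each carries, so the share of cells at a TPM of at least 1 (detected) is given with exact binomial 95% intervals, which cover counting error only.

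The antioxidant response element was looked up in RefSeq promoter windows of build GRCm38.p6, each 300 bases long with 250 bases before the annotated start. Windows were found for 35 of the 42 members. Gclc, Gsr, Abcc1, Gsta4, Hmox1, Aldh3a1 and Prdx6 had no window and were not searched, and elements outside the windows were not looked for. The core motif TGACNNNGC, searched on both strands, lay in a window of 12 of these 35 members (34.3%), against 3781 of 27025 genes with a window (13.99%). The 12 were G6pdx, Gclm, Gsta3, Gstm5, Me1, Mgst1, Nfe2l2, Pgd, Prdx1, Sod1, Srxn1 and Txnrd1. A match is a description of the letters and not evidence of binding.

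Stretches of 4 of these promoters are shown with the motif in capitals, 5′ to 3′ on the strand of the gene, because they hold the element in genes that in reporter-positive cells were at least 2-fold higher (Me1, G6pdx) or lower (Mgst1) than in CD44+ reporter-negative cells, or within 2-fold (Prdx1). In Me1 the motif lies on the strand of the gene, and in the other 3 on the opposite strand, so that it ends in TCA.
Me1, chr9:86695885-86696064, minus strand: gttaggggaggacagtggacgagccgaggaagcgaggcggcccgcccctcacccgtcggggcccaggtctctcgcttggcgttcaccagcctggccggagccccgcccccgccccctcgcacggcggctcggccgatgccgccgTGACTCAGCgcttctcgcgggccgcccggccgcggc
G6pdx, chrX:74428851-74429030, minus strand: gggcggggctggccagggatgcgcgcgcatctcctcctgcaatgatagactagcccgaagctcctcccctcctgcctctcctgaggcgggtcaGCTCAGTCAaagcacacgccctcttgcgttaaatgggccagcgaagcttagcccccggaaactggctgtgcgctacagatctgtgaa
Mgst1, chr6:138140377-138140556, plus strand: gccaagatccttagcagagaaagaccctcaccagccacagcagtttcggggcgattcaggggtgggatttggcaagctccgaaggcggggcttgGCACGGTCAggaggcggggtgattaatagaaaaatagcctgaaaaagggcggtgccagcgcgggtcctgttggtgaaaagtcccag
Prdx1, chr4:116685449-116685628, plus strand: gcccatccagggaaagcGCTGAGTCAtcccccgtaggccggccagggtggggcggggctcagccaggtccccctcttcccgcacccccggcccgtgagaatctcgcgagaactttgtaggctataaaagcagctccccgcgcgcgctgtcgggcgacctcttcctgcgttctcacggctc

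Reporter-positive cells had members past 2-fold in both directions against each of the other 2 α6+ gates. Against CD44-negative α6+ cells, 6 of 40 members tested were at least 2-fold higher and 4 lower (15% and 10%), where 9.8% and 4.78% of all tested rows were. The higher ones were Gsta1, Gsta4, Hmox1, Gsr, Gsto1 and Me1, and the lower ones Aldh3a1, Gstm1, Gstm2 and Mgst1. When only CD44-negative α6+ cells with Y-linked transcripts were used, 6 were higher and 6 lower (12.1% and 4.89% of all rows), with Gsto1 (log2 ratio 0.80) and Me1 (0.94) no longer among the higher ones. Against CD44+ reporter-negative cells, 13 of 40 members were higher and the same 4 genes lower, where 12.6% and 16.5% of all tested rows were. The members' shares there were 32.5% and 10%. With keratinocyte-led cells only, 4 members were lower, beside 12.2% of all rows. The 13 held the same 6 genes with Gpx2, G6pdx, Srxn1, Abcc1, Pgd, Gss and Gsta2. For Gsta2 the log2 ratio of 1.08 was 0.19 with a pseudocount of 10 TPM, 0.25 with the mean of log2 values, 0.99 with keratinocyte-led cells only and 0.72 without plate CSC2. With only the 6 reporter-positive cells that had no repeat under another label, whose median was 2610 detected rows, 10 members were higher and 9 lower than in CD44-negative α6+ cells, where 15.4% and 41.02% of all tested rows were, and no CD44+ reporter-negative cell was without such a repeat. The median log2 ratio of the members was 0.35 and 0.56 in these 2 comparisons, beside 0.07 and -0.03 over all tested rows.

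CD44+ reporter-negative cells had 0 of 39 members higher and 8 lower than CD44-negative α6+ cells, where 16.8% and 6.19% of all tested rows were. The 8 were Gpx2, Gsta4, G6pdx, Gstm1, Gsta1, Nqo1, Me1 and Gsto1. CD44-negative α6+ cells had 12 of 40 members higher and 5 lower than α6-negative cells, with 8.67% and 25.7% over all rows. After transfer, 2 of 40 members were higher and 9 lower than in reporter-positive cells, with 3.15% and 8.6% over all rows. The higher ones were Gstm1 and Mgst1, and the lower ones Sod1, Gsr, Ftl1, Hmox1, Gsta1, Fth1, Gpx2, Gsto1 and Gpx3. With all 6 plates labelled after transfer, which include the repeats of reporter-positive cells, 1 was higher and 2 lower, with 2.89% and 3.35% over all rows. Against CD44-negative α6+ cells, 3 of 39 were higher and 4 lower after transfer, with 3.88% and 4.72% over all rows, so the members' shares there were 7.69% and 10.3%. The higher ones were Gsta1, Gsta4 and Me1, and the lower ones Aldh3a1, Gstm2, Gstm1 and Sod1. Me1 lay at the 2-fold threshold. Comparisons that name the same group share its cells and are not independent of each other.

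Between 23 and 32 of the members tested stayed within 2-fold in each of the 6 comparisons, and the plot of mean levels by plate shows which ones stood out.

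**Figure D1:**
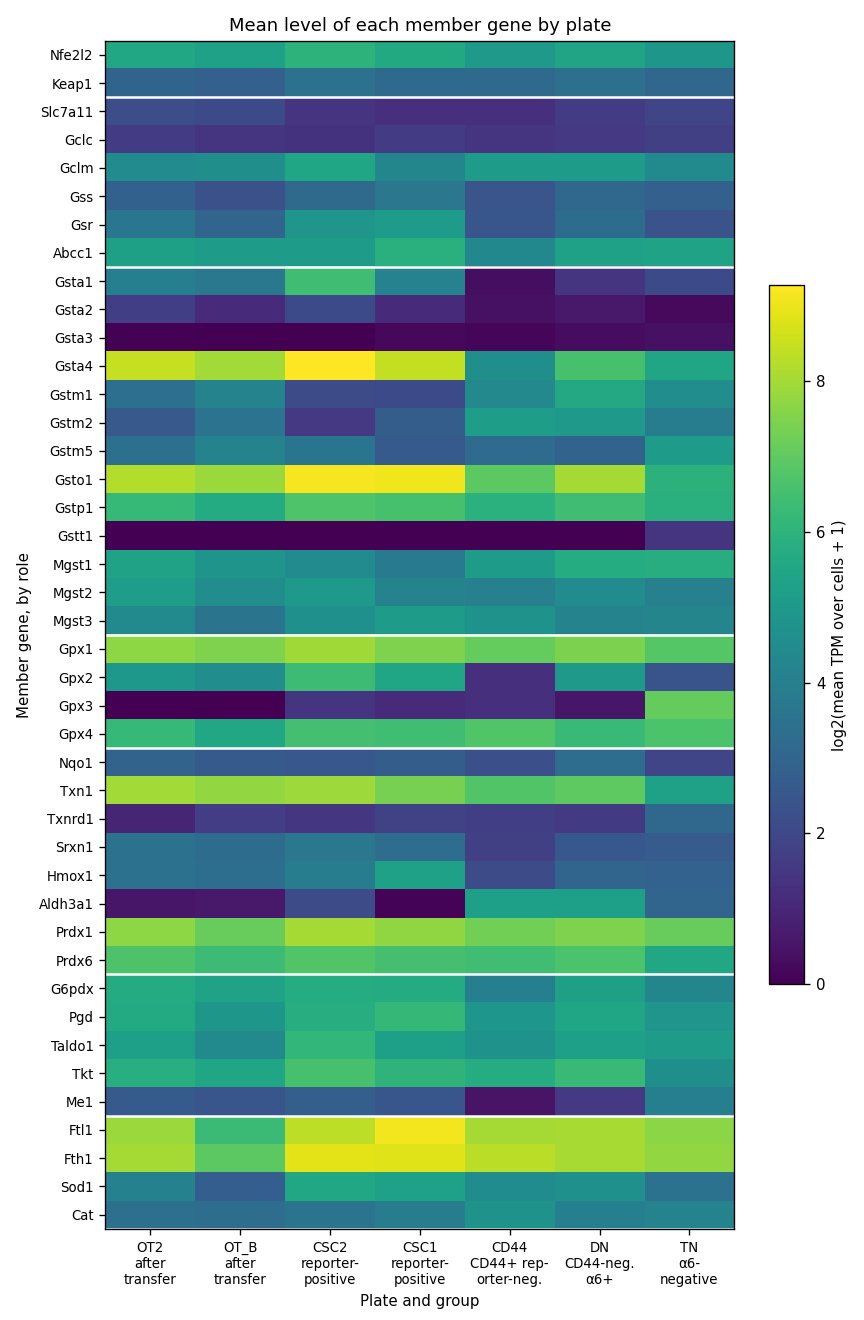
Mean level of each of the 42 members, as log2 of the mean TPM over cells plus 1, in the 2 plates after transfer, the 2 reporter-positive plates and the plates of the other 3 groups, with members ordered by role. Gsta4 and Gsto1 had their highest plate means on the reporter-positive plate CSC2 (617 and 569 TPM), while Gsta3 and Gstt1 were near or at 0 nearly everywhere.

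The NRF2 transcript itself differed little. Nfe2l2 averaged 42.5 TPM in cells after transfer (median 35.99, range 0 to 132.5), 52.9 TPM in reporter-positive cells (median 42.9, range 0 to 260.2), 31.4 TPM in CD44+ reporter-negative cells (median 25.9, range 0 to 102.6), 41.7 TPM in CD44-negative α6+ cells (median 32.9, range 0 to 177.3) and 28.9 TPM in α6-negative cells (median 20.1, range 0 to 202.1). Its log2 ratio was 0.34 and 0.73 in reporter-positive cells over CD44-negative α6+ and CD44+ reporter-negative cells, and it stayed within 2-fold in all 6 comparisons. It was detected in at least 88.4% of the cells of each group. Keap1, which binds NRF2 and directs its degradation, averaged 6.53, 8.64, 8.32, 9.63 and 7.41 TPM in the same order of groups and likewise stayed within 2-fold.

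Of the 6 genes of glutathione synthesis, reduction and export, Gsr, the NADPH-dependent reductase that restores glutathione from its disulfide, differed most. Gsr averaged 9.26 TPM in cells after transfer (median 2.25, range 0 to 81.98), 31.5 TPM in reporter-positive cells (median 23.6, range 0 to 134.3), 4.54 TPM in CD44+ reporter-negative cells (median 1.21, range 0 to 20.98), 8.60 TPM in CD44-negative α6+ cells (median 3.68, range 0 to 121.7) and 4.19 TPM in α6-negative cells (median 0, range 0 to 61.9). The cells overlapped between all groups, but the reporter-positive median lay above the means of the other 4 groups. Gsr was detected in 92.4% of reporter-positive cells (95% interval 85.5% to 96.7%), against 59.3% of CD44-negative α6+ cells (95% interval 48.5% to 69.5%). The log2 ratio was 1.76 over CD44-negative α6+ cells and 2.55 over CD44+ reporter-negative cells, with means of 27.6 TPM on CSC2 and 33.1 on CSC1. After transfer it was lower than in reporter-positive cells, at a log2 ratio of -1.66, and close to CD44-negative α6+ cells, at 0.10.

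Of the enzymes that build glutathione, Gclc and Gclm did not follow Gsr. Gclc, the catalytic subunit of the rate-limiting ligase, was low in every group, with means of 1.90 TPM after transfer, 1.94 in reporter-positive, 1.72 in CD44+ reporter-negative, 1.94 in CD44-negative α6+ and 2.36 in α6-negative cells. Gclm, its modifier subunit, averaged 25.6 TPM in reporter-positive cells and 33.5 in CD44-negative α6+ cells, a log2 ratio of -0.38, but its 2 reporter-positive plates were over 2-fold apart, at 42.2 TPM on CSC2 and 18.2 on CSC1. On CSC2 the median of Gclm was 15.5 TPM and 3 cells held 59.4% of the sum. Without its highest cell the CSC2 mean was 27.9 TPM. The 27 cells of CSC2 sequenced again on OT_D averaged 39.6 TPM of Gclm on CSC2 and 21.9 on OT_D. Gss, which adds glycine in the last step, averaged 10.7 TPM in reporter-positive cells, 4.48 in CD44+ reporter-negative and 7.67 in CD44-negative α6+ cells. Its log2 ratio passed 2-fold over CD44+ reporter-negative cells only (1.10), and without plate CSC1 it was 0.74.

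Slc7a11, the cystine carrier that supplies cysteine, was detected in 50.3% of cells after transfer (95% interval 42.7% to 57.9%) and 28.6% of reporter-positive cells (95% interval 20.2% to 38.2%). Its mean of 3.44 TPM after transfer was the highest of the 5 groups, and the log2 ratio over reporter-positive cells (1.45 TPM) was 0.86, within 2-fold. Abcc1, an exporter of glutathione conjugates, averaged 51.02 TPM in reporter-positive cells, 18.999 in CD44+ reporter-negative and 38.9 in CD44-negative α6+ cells, with log2 ratios of 1.38 and 0.38. On the plates it was 34.2 TPM on CSC2 and 58.4 on CSC1, and without CSC1 the ratio over CD44+ reporter-negative cells was 0.81.

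The 13 glutathione transferases, which join glutathione to electrophiles, were 6 of the 10 members past 2-fold in reporter-positive over CD44-negative α6+ cells and 7 of the 17 over CD44+ reporter-negative cells. Gsta4, an alpha-class transferase known for its activity on the lipid peroxidation product 4-hydroxynonenal, averaged 301.9 TPM in cells after transfer (median 161.8, range 0 to 1814), 427.7 TPM in reporter-positive cells (median 94.97, range 0 to 2889), 23.8 TPM in CD44+ reporter-negative cells (median 0, range 0 to 143.9), 93.6 TPM in CD44-negative α6+ cells (median 18.1, range 0 to 952) and 42.5 TPM in α6-negative cells (median 0, range 0 to 1693). The mean was higher in reporter-positive cells than after transfer, and the median was lower, so the order of these 2 groups depends on the measure. Gsta4 was detected in 96.2% of reporter-positive cells (95% interval 90.5% to 98.95%), 33.3% of CD44+ reporter-negative cells (95% interval 11.8% to 61.6%) and 72.5% of CD44-negative α6+ cells (95% interval 62.2% to 81.4%). Its log2 ratio in reporter-positive cells was 2.18 over CD44-negative α6+ and 4.11 over CD44+ reporter-negative cells, and 1.68 after transfer over CD44-negative α6+ cells. By plate it averaged 352.6 TPM on OT2 and 253.02 on OT_B after transfer, and 617 on CSC2 and 344.8 on CSC1 in reporter-positive cells, so OT2 and CSC1 were nearly level.

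Gsto1, an omega-class transferase with thiol reductase activity, differed in level more than in detection. It averaged 266.3 TPM in cells after transfer (median 221.9, range 0 to 971), 543.8 TPM in reporter-positive cells (median 390.1, range 39.2 to 2551), 121.9 TPM in CD44+ reporter-negative cells (median 82.2, range 0 to 659), 255.9 TPM in CD44-negative α6+ cells (median 202.9, range 10.99 to 1019) and 61.8 TPM in α6-negative cells (median 13.9, range 0 to 669.5). All reporter-positive and all CD44-negative α6+ cells had it at 1 TPM or more, so the difference between these groups lay in how much each cell carried. The log2 ratio was 1.08 over CD44-negative α6+ and 2.15 over CD44+ reporter-negative cells, with nearly equal plates (569 TPM on CSC2 and 532.9 on CSC1). Over CD44-negative α6+ cells with Y-linked transcripts it was 0.80, and in the 6 reporter-positive cells with no repeat under another label it was 0.0068 over all CD44-negative α6+ cells. The lower value after transfer was near the threshold at -1.03, and it was -0.84 with TPM rescaled to leave out ribosomal and spike-in rows.

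Gsta1, another alpha-class enzyme, was carried by a minority of cells. Its mean was 13.5 TPM after transfer, 37.1 in reporter-positive, 0.258 in CD44+ reporter-negative, 1.71 in CD44-negative α6+ and 3.22 in α6-negative cells, and its median was 0 in all 5. TPM of at least 1 was reached in 31.6% of cells after transfer (95% interval 24.9% to 39.04%), 36.2% of reporter-positive cells (95% interval 27.04% to 46.1%) and 9.89% of CD44-negative α6+ cells (95% interval 4.62% to 17.9%). The 3 highest cells held 54.04% of the reporter-positive sum, and the plates stood 84.6 TPM on CSC2 and 16.3 on CSC1. The log2 ratio over CD44-negative α6+ cells was 3.81, and without CSC2 the ratio after transfer over reporter-positive cells was -0.25 instead of -1.40. Of the distinct 36-base stretches in its transcripts, 92.3% also occur in other genes, and 57.8% of those of Gsta2 do, so reads of the 2 genes may have been shared between them. Gsta2 averaged 1.75 TPM after transfer and 1.79 in reporter-positive cells. Gsta3 was detected in at most 4 cells of any group.

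The mu-class transferases ran the other way. Gstm1 averaged 13.2 TPM in cells after transfer (median 1.90, range 0 to 194.7), 3.32 TPM in reporter-positive cells (median 0, range 0 to 44.4), 19.4 TPM in CD44+ reporter-negative cells (median 10.5, range 0 to 68.7), 47.1 TPM in CD44-negative α6+ cells (median 29.3, range 0 to 213.6) and 22.1 TPM in α6-negative cells (median 0, range 0 to 239.02). Transcripts were found in 30.5% of reporter-positive cells (95% interval 21.9% to 40.2%), against 80% of CD44+ reporter-negative cells (95% interval 51.9% to 95.7%) and 82.4% of CD44-negative α6+ cells (95% interval 73.02% to 89.6%). The log2 ratio in reporter-positive cells was -3.48 over CD44-negative α6+ and -2.24 over CD44+ reporter-negative cells, and the plates were alike (3.46 and 3.26 TPM on CSC2 and CSC1). Gstm2 gave log2 ratios of -2.50 and -2.69 in the same comparisons. After transfer Gstm1 was between these groups, at 1.72 over reporter-positive and -1.76 over CD44-negative α6+ cells. Gstm5, the third of the class, did not share the pattern, with 0.07 over CD44-negative α6+ cells, and was highest in α6-negative cells at 32.9 TPM against 6.66 in CD44-negative α6+ cells.

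Of the 3 membrane-bound transferases, Mgst1 followed the mu class. It averaged 32.8 TPM in cells after transfer (median 18.3, range 0 to 359.8), 15.5 TPM in reporter-positive cells (median 4.68, range 0 to 122.3), 34.2 TPM in CD44+ reporter-negative cells (median 18.8, range 0 to 164.1) and 52.8 TPM in CD44-negative α6+ cells (median 35.5, range 0 to 240.3). The log2 ratio in reporter-positive cells was -1.70 over CD44-negative α6+ and -1.09 over CD44+ reporter-negative cells, and 1.03 after transfer over reporter-positive cells. Without CSC1 the last 2 of these were -0.67 and 0.62, and without OT2 the last was 0.74. Mgst2 and Mgst3, related enzymes with peroxidase activity on lipids, stayed within 2-fold in all 6 comparisons. Gstp1, the pi-class enzyme, was detected in at least 76.7% of the cells of every group and stayed within 2-fold (0.19 in reporter-positive over CD44-negative α6+ cells). Gstt1, a theta-class enzyme, was listed at 0 in every cell of the other 4 groups and detected in 3 of 43 α6-negative cells, none of them led by keratinocyte markers.

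**Figure D2:**
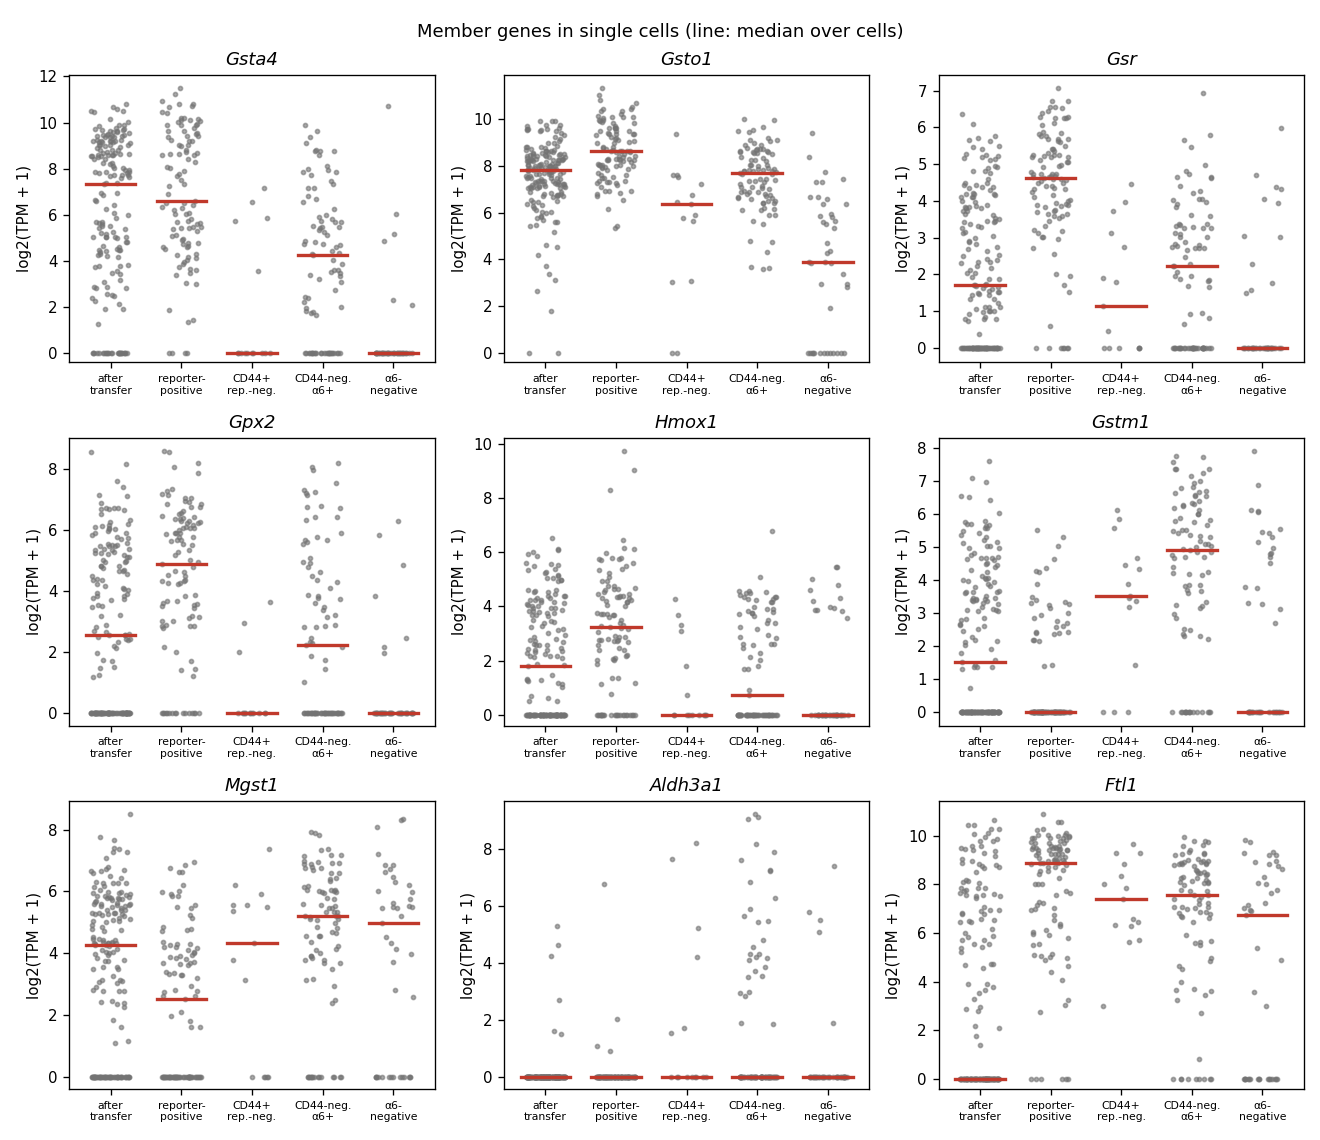
Single-cell levels of 9 members, as log2(TPM + 1), by group, from cells after transfer at the left to α6-negative cells at the right, each point 1 cell and each line the median over cells. Gsta4, Gsto1, Gsr, Gpx2 and Hmox1 had reporter-positive medians of 94.97, 390.1, 23.6, 28.5 and 8.55 TPM, above those of CD44-negative α6+ cells, while Gstm1 and Mgst1 had lower ones and Aldh3a1 was detected in few cells of most groups.

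The 4 glutathione peroxidases, which reduce peroxides with glutathione, split by type. Gpx2, the epithelial enzyme, averaged 25.9 TPM in cells after transfer (median 4.89, range 0 to 372.7), 54.9 TPM in reporter-positive cells (median 28.5, range 0 to 381.6), 1.43 TPM in CD44+ reporter-negative cells (median 0, range 0 to 11.6), 31.1 TPM in CD44-negative α6+ cells (median 3.77, range 0 to 293.5) and 4.33 TPM in α6-negative cells (median 0, range 0 to 78.3). Detection reached 84.8% of reporter-positive cells (95% interval 76.4% to 91.03%) and 20% of CD44+ reporter-negative cells (95% interval 4.33% to 48.1%), whose highest cell lay below the reporter-positive median. The log2 ratio was 4.52 in reporter-positive over CD44+ reporter-negative cells and -3.73 in CD44+ reporter-negative over CD44-negative α6+ cells. Over CD44-negative α6+ cells the reporter-positive ratio was 0.80, within 2-fold. In the after-transfer comparison Gpx2 gave -1.06 over reporter-positive cells, and -0.72 without CSC2. Gpx1 and Gpx4, the cytosolic enzyme and the one that acts on membrane lipid peroxides, were detected in most cells of all groups and stayed within 2-fold in all 6 comparisons.

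Gpx3, the secreted peroxidase, marked the α6-negative gate. It averaged 133.3 TPM there and 0.482 in CD44-negative α6+ cells, with log2 ratio -6.50 in CD44-negative α6+ over α6-negative cells. All of it came from the 16 α6-negative cells not led by keratinocyte markers, where it averaged 358.1 TPM and was detected in 14 of 16 cells, and it was listed at 0 in the 27 keratinocyte-led ones. Gpx3 was also listed at 0 in every cell after transfer, where it counted as lower than in reporter-positive cells (1.31 TPM, detected in 10.5% of cells).

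Among the thioredoxin, quinone, haem and aldehyde enzymes, Hmox1 and Aldh3a1 stood apart. Hmox1, which breaks down haem, averaged 9.75 TPM in cells after transfer (median 2.47, range 0 to 91.4), 30.7 TPM in reporter-positive cells (median 8.55, range 0 to 844), 3.30 TPM in CD44+ reporter-negative cells (median 0, range 0 to 18.1), 7.08 TPM in CD44-negative α6+ cells (median 0.680, range 0 to 108.4) and 6.60 TPM in α6-negative cells (median 0, range 0 to 43.2). TPM of at least 1 was reached in 77.1% of reporter-positive cells (95% interval 67.9% to 84.8%) and 48.4% of CD44-negative α6+ cells (95% interval 37.7% to 59.1%), and 3 cells held 52.3% of the reporter-positive sum. The log2 ratio over CD44-negative α6+ cells was 1.97 and over CD44+ reporter-negative cells 2.88. On the plates Hmox1 stood at 13.8 TPM on CSC2 and 38.1 on CSC1, and without CSC1 the ratio over CD44-negative α6+ cells was 0.88. The lower value after transfer (-1.56) was -0.47 without CSC1. In the 6 reporter-positive cells with no repeat under another label the ratio over CD44-negative α6+ cells was -2.23.

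Aldh3a1, an aldehyde dehydrogenase, was detected in 3.39% of cells after transfer (95% interval 1.25% to 7.23%), 2.86% of reporter-positive cells (95% interval 0.593% to 8.12%), 40% of CD44+ reporter-negative cells (95% interval 16.3% to 67.7%), 32.97% of CD44-negative α6+ cells (95% interval 23.5% to 43.6%) and 11.6% of α6-negative cells (95% interval 3.89% to 25.1%). The highest cells reached 38.7, 109.9, 293.1, 594 and 168.9 TPM in that order. The reporter-positive mean was 1.10 TPM, with 1 detected cell on CSC2, and in the 27 cells of CSC2 sequenced again on OT_D the mean was 4.07 TPM on CSC2 and 0 on OT_D. Nqo1, a quinone reductase and a widely used NRF2 readout, did not follow the transferases Gsta1, Gsta4 and Gsto1: it averaged 5.36 TPM in reporter-positive cells, 3.76 in CD44+ reporter-negative and 9.06 in CD44-negative α6+ cells, with a log2 ratio of -0.66 over the last.

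Srxn1, which repairs oxidised peroxiredoxins, averaged 9.29 TPM after transfer, 9.83 in reporter-positive, 2.40 in CD44+ reporter-negative and 4.87 in CD44-negative α6+ cells. Its log2 ratio was 1.67 in reporter-positive over CD44+ reporter-negative cells and 0.88 over CD44-negative α6+ cells. Txn1, the cytosolic thioredoxin, averaged 235.96, 186.2, 106.1, 124.2 and 38.8 TPM from cells after transfer to α6-negative cells in the order above, and of the 6 comparisons only the one of CD44-negative α6+ over α6-negative cells passed 2-fold (1.65). Its reductase Txnrd1 was low, between 1.57 TPM after transfer and 7.60 in α6-negative cells. Prdx1, an abundant peroxiredoxin, was detected in all cells of 4 groups and in 41 of 43 α6-negative cells, and stayed within 2-fold throughout. Prdx6, a peroxiredoxin that also acts on phospholipids, averaged 92.2, 96.3, 84.5, 99.8 and 45.6 TPM in the same order and passed 2-fold only in CD44-negative α6+ over α6-negative cells (1.11).

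The 5 genes grouped here under NADPH supply all had their lowest mean of the 3 α6+ gates in CD44+ reporter-negative cells. G6pdx, which opens the pentose phosphate pathway, averaged 45.2 TPM in cells after transfer (median 37.5, range 0 to 187.2), 51.3 TPM in reporter-positive cells (median 47.96, range 0 to 148.3), 14.9 TPM in CD44+ reporter-negative cells (median 4.53, range 0 to 59.2) and 37.3 TPM in CD44-negative α6+ cells (median 30.8, range 0 to 162.6). Its log2 ratio was 1.71 in reporter-positive over CD44+ reporter-negative cells and 0.45 over CD44-negative α6+ cells. Pgd, the next dehydrogenase of the pathway, gave 1.19 and 0.58, and without CSC1 the first was 0.93. Me1, the cytosolic malic enzyme, gave 2.11 and 1.04, the second at the threshold (0.93 without CSC2). Transcripts were found in 68.6% of reporter-positive cells (95% interval 58.8% to 77.3%) and 24.2% of CD44-negative α6+ cells (95% interval 15.8% to 34.3%), yet its highest mean was 15.1 TPM in α6-negative cells. Taldo1 and Tkt, of the non-oxidative branch, were within 2-fold except for Tkt in CD44-negative α6+ over α6-negative cells (1.62).

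In the CD44+ reporter-negative gate, 3 of 15 cells were led by fibroblast or pericyte markers, and these had G6pdx at 1.01 TPM, against 18.4 in the 12 keratinocyte-led cells. With keratinocyte-led cells only, 14 members were higher and 4 lower in reporter-positive than in CD44+ reporter-negative cells, where 16.7% and 12.2% of all rows were. In CD44+ reporter-negative over CD44-negative α6+ cells 0 were then higher and 6 lower, where 11.2% and 8.54% of all rows were. The Xist cells of the CD44-negative α6+ gate carried less of several members than its Y-linked cells. In Xist and Y-linked cells, Gclm averaged 13.3 and 52.2 TPM, Gpx2 12.1 and 39.6, and Mgst1 31.2 and 71.1. Against the Xist cells alone, CD44+ reporter-negative cells had 2 members higher and 5 lower, where 17.3% and 6.54% of all rows were. Which animals the cells came from is not given, so sex and animal cannot be told apart. Y-linked transcripts without Xist were found in 99 reporter-positive cells and in 0 CD44+ reporter-negative cells. Gate, sex and animal therefore cannot be told apart in reporter-positive over CD44+ reporter-negative cells, and that comparison was not tested within cells of the same sex.

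**Figure D3:**
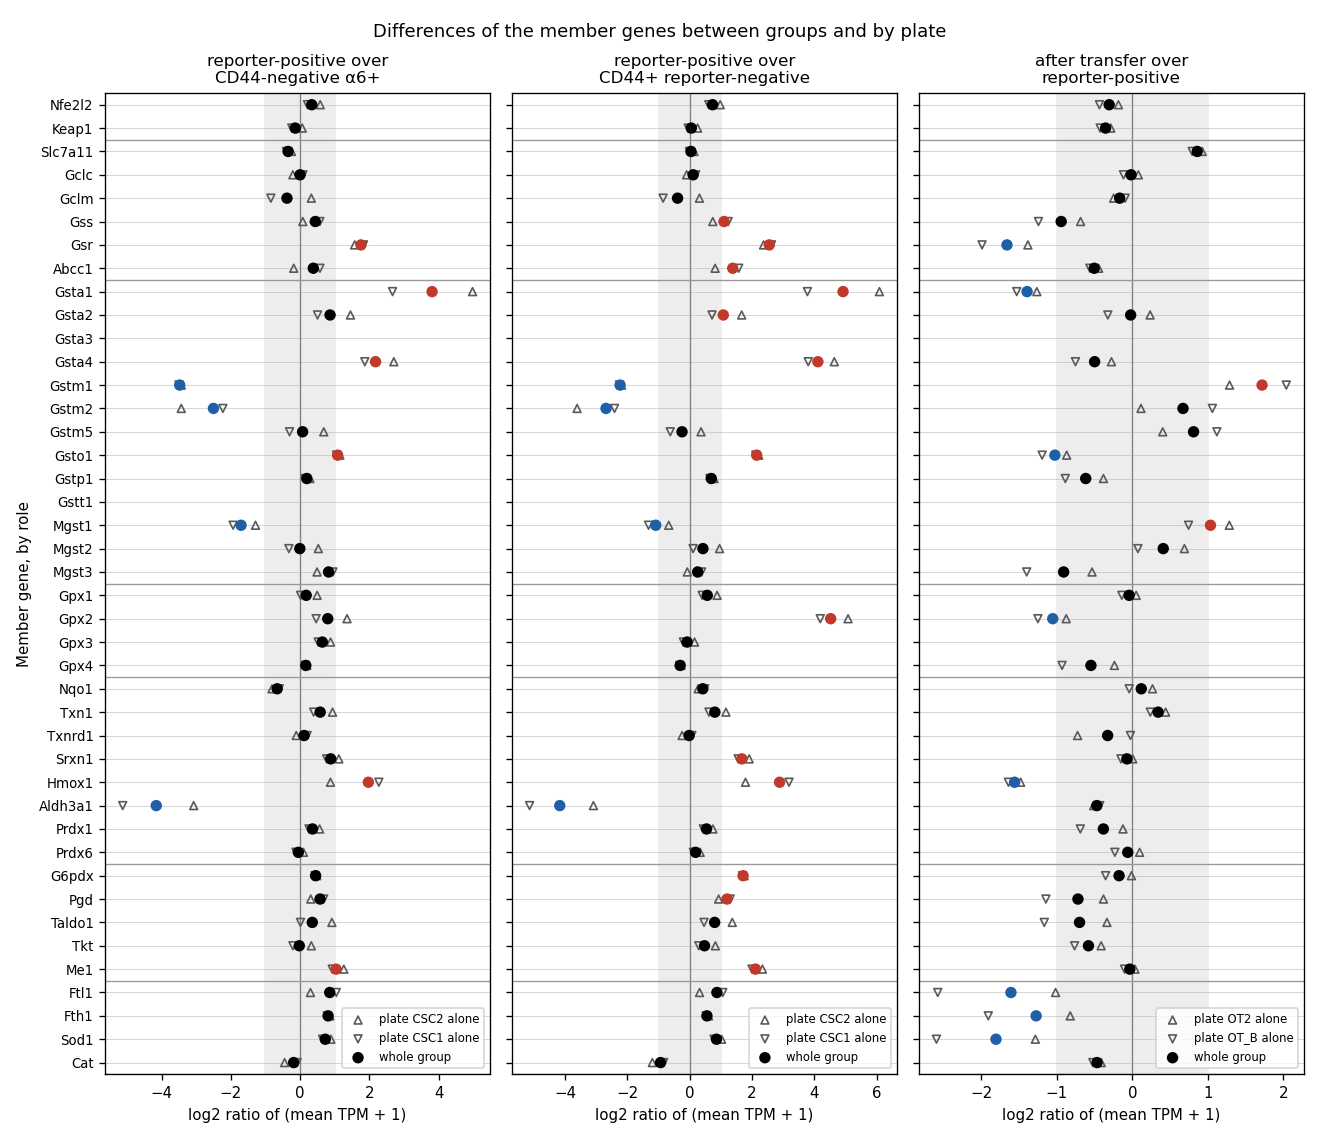
Log2 ratio of (mean TPM + 1) of each member in reporter-positive over CD44-negative α6+ cells, reporter-positive over CD44+ reporter-negative cells and cells after transfer over reporter-positive cells, with filled points for whole groups (red at least 2-fold higher, blue at least 2-fold lower, black within 2-fold), open triangles for single plates, and the band within 2-fold shaded. Gsr, Gsta4, Gsto1, Gstm1 and Gstm2 lay on the same side for both reporter-positive plates. So did Hmox1 (log2 ratio 1.97 over CD44-negative α6+ cells) and Gsta1 (3.81), whose plates lay further apart. Members under 1 TPM in both groups, and Gpx3 after transfer, which was listed at 0, have no point.

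The iron-storing ferritins and Sod1 were lower after transfer than in reporter-positive cells. Ftl1, the ferritin light chain, averaged 156.3 TPM in cells after transfer (median 0, range 0 to 1592), 478.8 TPM in reporter-positive cells (median 471.6, range 0 to 1865), 261.2 TPM in CD44+ reporter-negative cells (median 167.7, range 6.99 to 814), 264.1 TPM in CD44-negative α6+ cells (median 188.6, range 0 to 973) and 199.2 TPM in α6-negative cells (median 105.6, range 0 to 906). Detection reached 47.5% of cells after transfer (95% interval 39.9% to 55.1%), against 94.3% of reporter-positive cells (95% interval 87.98% to 97.9%) and 89.01% of CD44-negative α6+ cells (95% interval 80.7% to 94.6%), and the other cells were listed at 0. Such zeros can be failed estimates. Of 81 cytosolic ribosomal protein genes, a median of 77 were detected per cell in each of these 3 groups. These are other genes, and whether the Ftl1 zeros were failed estimates was not tested. Fth1, the heavy chain, averaged 190.5 TPM after transfer, 462.6 in reporter-positive and 263.7 in CD44-negative α6+ cells. Sod1, the cytosolic superoxide dismutase, averaged 10.8, 40.4 and 24.04 TPM in the same groups.

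After transfer over reporter-positive cells, the log2 ratios were -1.61 for Ftl1, -1.28 for Fth1 and -1.81 for Sod1. The 2 plates after transfer were themselves over 2-fold apart in all 3 genes, at 235.9 and 79.3 TPM of Ftl1, 260.9 and 122.4 of Fth1 and 15.99 and 5.85 of Sod1 on OT2 and OT_B. These were the only members past 2-fold between OT2 and OT_B (3 higher and 0 lower of 38, where 4.52% and 1.55% of all rows were). The 2 reporter-positive plates also differed in Ftl1, at 325.1 TPM on CSC2 and 546.1 on CSC1, so the size of its ratio depends on the plates compared. Without OT_B the ratio of Fth1 was -0.82. Between CSC2 and CSC1, 3 of 40 members were higher and 2 lower, where 8.54% and 6.11% of all rows were. Cat, the catalase, stayed within 2-fold in all 6 comparisons.

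Integrin α6 was not part of the gate after transfer, and its transcript Itga6 was detected in 83.6% of cells after transfer and 93.3% of reporter-positive cells. With only these cells, the log2 ratios after transfer over reporter-positive cells were -1.46 for Ftl1, -1.14 for Fth1, -1.66 for Sod1 and -1.59 for Gsr. In the 29 cells after transfer without Itga6, Ftl1 averaged 9.95 TPM and was detected in 3 of 29, and Sod1 was listed at 0 in all of them. Over CD44-negative α6+ cells with Itga6, the ratio of Sod1 after transfer was -0.90, against -1.08 with all cells, and that of Me1 was 0.49, against 2-fold with all cells. Gsta4 averaged 377.7 TPM in cells without Itga6 and 287.1 in cells with it.

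Across the cells of 1 plate, Gsta4 and Ftl1 followed different keratinocyte layer markers. Spearman correlations are given as descriptions over the cells of a plate, which share a library preparation, a total of TPM and differences in detected rows. Gsta4 went with the mean log2 level of 10 suprabasal keratinocyte markers (Krt1, Krt10 and others), at a rho of 0.49 on OT2 (87 cells), 0.37 on OT_B (90), 0.64 on CSC2 (32), 0.73 on CSC1 (73) and 0.66 in CD44-negative α6+ cells (91). Gsto1 did so on 3 of these plates, at 0.41 on CSC2, 0.52 on CSC1 and 0.59 in CD44-negative α6+ cells, and weakly at 0.04 and 0.14 on OT2 and OT_B. Ftl1 ran with 8 basal markers (Itga6, Krt5, Krt14 and others) instead, on the same 5 plates in the same order at 0.83, 0.75, 0.67, 0.63 and 0.63.

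In that order of plates, Sod1 gave 0.60, 0.67, 0.79, 0.66 and 0.55 with the basal markers, and Fth1 0.75, 0.70, 0.59, 0.47 and 0.66. In the 43 α6-negative cells the sign was the other way, -0.51 for Ftl1, and the fibroblast-led and pericyte-led cells there carried Ftl1 at 375.1 TPM and the keratinocyte-led ones at 95.01. The summed basal markers ranged from 13.98 to 18518 TPM in cells after transfer (median 8138) and from 1981 to 16891 in reporter-positive cells (median 9095), and the summed suprabasal markers had medians of 2428 and 285.9 TPM. Their part in the lower ferritin level after transfer was not tested.

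**Figure D4:**
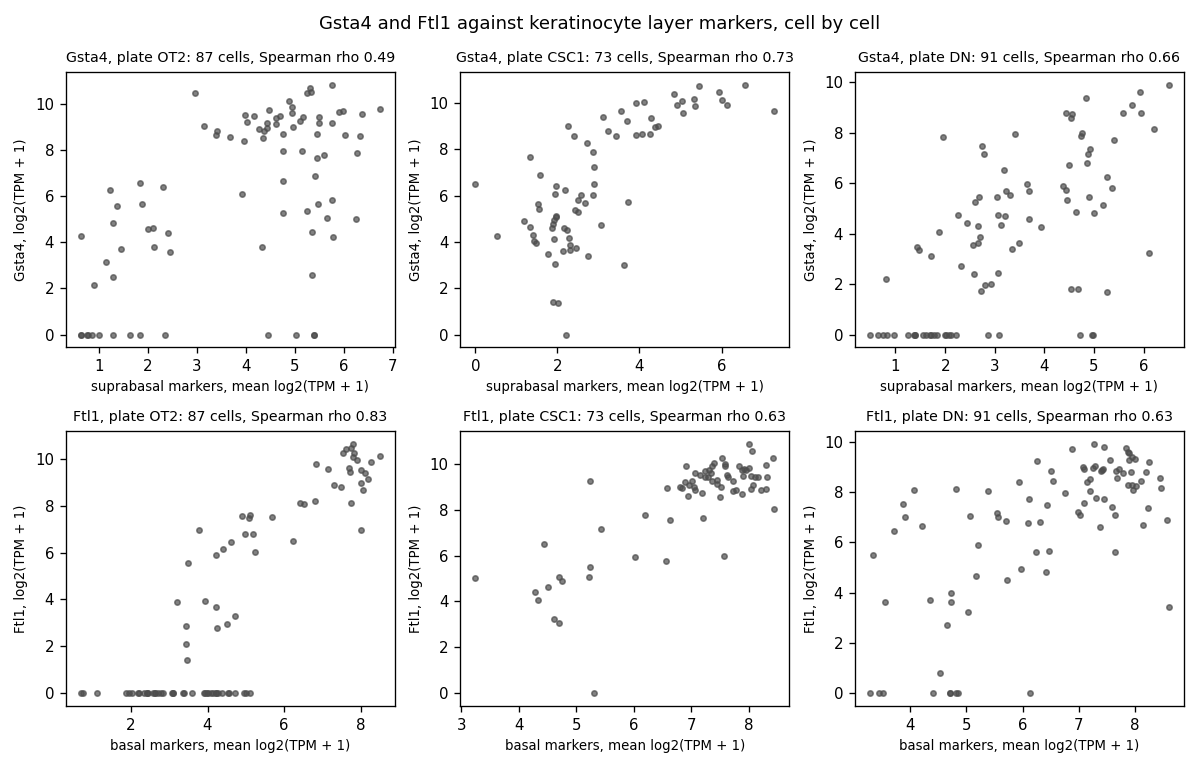
Levels in single cells, each point 1 cell, of Gsta4 against the mean log2(TPM + 1) of the suprabasal markers (upper row) and of Ftl1 against that of the basal markers (lower row) on plates OT2, CSC1 and DN. Both relations run upward on all 3 plates, with rho of 0.49, 0.73 and 0.66 for Gsta4 and 0.83, 0.63 and 0.63 for Ftl1, and the cells with Ftl1 at 0 lie mostly in the lower part of the basal range.

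Correlations between pairs of members were mostly weak on the 4 plates with the most cells (OT2, OT_B, CSC1 and DN). Of 561 pairs, the median rho was between 0.07 and 0.12 on the 4 plates. Some pairs, chosen here after their values were seen, were stronger on all 4 plates. Ftl1 and Sod1 varied together (rho 0.47 to 0.66), as did Ftl1 and Fth1 (0.38 to 0.69) and Gpx4 and Ftl1 (0.41 to 0.62). The same held for Nfe2l2 with Gsto1 (0.42 to 0.68), Gsta4 with Gsto1 (0.47 to 0.70), Nfe2l2 with Gpx2 (0.38 to 0.58) and Gsto1 with G6pdx (0.35 to 0.53). Gsta4 and Ftl1 ran opposite to each other on all 4 plates (-0.57 to -0.29).

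In CD44-negative α6+ over α6-negative cells, the 12 higher members were Gsta4, Gstm1, Gstm2, Gsto1, Gpx2, Nqo1, Txn1, Aldh3a1, Prdx6, G6pdx, Tkt and Sod1, and the 5 lower Gstm5, Gstt1, Gpx3, Txnrd1 and Me1. The largest were Gpx2 at 2.59, Aldh3a1 at 2.21 and Gsto1 at 2.03, against Me1 at -2.45 and Gstm5 at -2.15 besides Gpx3. Spike-in RNA took a median of 2.78% of TPM in α6-negative cells and 0.43% in CD44-negative α6+ cells. With keratinocyte-led cells only, 10 members were higher, 8 of them among the 12, and 3 lower, 2 of them among the 5. In the cells not led by keratinocyte markers and in the keratinocyte-led α6-negative cells, Me1 averaged 12.7 and 16.5 TPM, Gstm5 13.01 and 44.7, and Txnrd1 13.96 and 3.83. Gsto1 averaged 24.7 and 83.7 TPM in these cells.

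Beyond the members, other genes of these pathways were followed in 6 lists. Reporter-positive cells had 10 of 90 tested higher and 6 lower than CD44-negative α6+ cells, close to the 9.8% and 4.78% of all rows. Over CD44+ reporter-negative cells 19 of 93 were higher and 13 lower, where 12.6% and 16.5% of all rows were. The lists differed in their counts. Of 24 further NRF2 targets, 21 were tested: 6 were higher and 2 lower over CD44-negative α6+ cells, and 9 higher and 1 lower over CD44+ reporter-negative cells. Over CD44+ reporter-negative cells, 5 of 24 other glutathione enzymes were higher and 5 lower, and 3 of 17 thioredoxin and peroxiredoxin genes were higher and 4 lower. In the other 3 lists, 0 of 12 cystine, cysteine and ferroptosis genes were higher and 1 lower, 1 of 10 NADPH supply genes was higher and 1 lower, and 1 of 9 NRF2 partners and regulators was higher and 1 lower. Among those 4-fold apart or more were the transporter gene Abcc3, at 13.3 TPM in reporter-positive and 0.955 in CD44+ reporter-negative cells, and the reductase gene Ptgr1, at 32.5 and 5.30. Ggct and Glrx, which act in glutathione breakdown and in reducing glutathionylated proteins, stood at 153.7 and 31.1 TPM and at 63.2 and 12.9 TPM in these 2 groups. Txnip, which inhibits thioredoxin, stood at 5.44 TPM in reporter-positive and 55.6 in CD44+ reporter-negative cells. Oplah, the oxoprolinase gene, stood at 6.76 and 32.8 TPM, Gstt3 at 1.09 and 9.45, and the extracellular superoxide dismutase gene Sod3 at 0.0116 and 7.07. Gstt3 was detected in 3 of 12 keratinocyte-led CD44+ reporter-negative cells and 0 of the 3 others.

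Cbs, which starts the making of cysteine from homocysteine, was at 0.0693 TPM in reporter-positive cells, against 5.06 in CD44+ reporter-negative and 3.34 in CD44-negative α6+ cells. These means came from few cells. Cbs was detected in 4 of 12 keratinocyte-led CD44+ reporter-negative cells, 0 of the 3 others and 20 of 91 CD44-negative α6+ cells. CD44+ reporter-negative over CD44-negative α6+ cells differed 4-fold in Gpx7 (3.77 and 0.0392 TPM) and Sod3 (7.07 and 0.0120 TPM). Both were listed at 0 in the 12 keratinocyte-led CD44+ reporter-negative cells, and averaged 18.9 and 35.4 TPM in the 3 others. CD44-negative α6+ over α6-negative cells differed 4-fold in Sod3 (0.0120 and 43.3 TPM), Slc40a1, the iron exporter (0.10 and 19.03), Gpx7 (0.0392 and 7.198), Gpx8 (2.41 and 14.9), Anpep (3.08 and 28.5) and H6pd (3.68 and 32.1). In the 16 α6-negative cells not led by keratinocyte markers and in the 27 led by them, Sod3 averaged 116.1 and 0.186 TPM, Gpx7 19.3 and 0, and Gpx8 36.8 and 1.99. Slc40a1 ran the other way in these cells, at 0.245 and 30.2 TPM, as did Anpep, at 13.95 and 37.1, while H6pd stood at 43.5 and 25.3. Ggct (60.8 and 12.5 TPM) and Mthfd1 (11.1 and 1.80) were higher in CD44-negative α6+ cells, and Cth, at 3.04 TPM there, was listed at 0 in all α6-negative cells. After transfer, 4 of 89 were higher and 4 lower than in reporter-positive cells, where 3.15% and 8.6% of all rows were, and none of them was 4-fold apart.

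Libraries taken as repeats of 1 cell showed how well these levels repeat. They were matched by their correlation over many genes, which favours agreement. The 2 libraries lay in the same well in 38 of 59 pairs of OT_B with OT1 and 46 of 68 of OT2 with OT_A. Across cells, the Pearson r of single members between CSC2 and OT_D had a median of 0.87 and a lowest value of 0.47. Over 71 cells of CSC1 repeated on OT_C the member means differed by a median of 0.07 on the log2 scale and at most 0.37, and over 68 cells of OT2 repeated on OT_A by a median of 0.11 and at most 0.39. Over 59 cells of OT_B repeated on OT1 the median was 0.20 and the highest 0.55, and over 15 cells of CD44 repeated on OT_D 0.14 and 0.72. Over the 27 cells of CSC2 repeated on OT_D the median was 0.14, and 1 member, Aldh3a1, differed by more than 1. Sequence shared with other genes touched Ftl1 (55.9% of its 36-base stretches), Gpx4 (37.6%), Gstp1 (37.2%), Me1 (28.03%) and Gstm1 (25.7%). Adding the genes that share at least 20% with a member moved Ftl1 to 157.6 TPM after transfer and 479.9 in reporter-positive cells, and Gsta2 to the sum of the Gsta1 family, 16.4 and 42.9 TPM.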

How the data were processed

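Values were deposited by the authors as TPM (a length-corrected share of the transcripts in a library) per gene and cell. Per the submitters' processing notes the tools were Bowtie2 2.2.9 and RSEM 1.2.30 with build mm10; settings are not given in the sources used here. Read depth is unknown in TPM, so detected rows stand in for it. Of 908 columns 17 were not used, 696 libraries had at least 2000 detected rows and 431 entered the groups. Repeat libraries were pairs with a Pearson r of log2(TPM + 1) of at least 0.88, or mutual best matches ahead by 0.05. Plates CSC1, CD44, DN and TN each held 1 such pair within the plate, which 1 alternative averaged. Ratios use mean TPM plus a pseudocount of 1 among rows with a mean of at least 1 TPM. The calculation was checked on simulated data. All 42 members were named, and other pathway genes at 4-fold or more. Members, lists and settings were chosen with earlier results of these data known. With 1 sample per group no test was run. Spearman correlations describe cells. Alternatives changed the pseudocount, filter, averaging, library and cell choice, scaling and plates. Tools were Python 3.11.15, pandas 2.3.3, numpy 2.4.6 and scipy 1.17.1.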

Additional observations from a re-analysis of the deposited data

How the results depend on the processing

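Counts are of members at least 2-fold higher or lower. With a pseudocount of 10 TPM, 8 were higher in reporter-positive over CD44+ reporter-negative cells (2.54% of all rows). That pseudocount gave 3 lower in CD44+ reporter-negative over CD44-negative α6+ cells (0.47%). It gave 5 higher and 3 lower in CD44-negative α6+ over α6-negative cells (1.70% and 4.79%). After transfer over reporter-positive cells, 0 were then higher (0.42%). In CD44+ reporter-negative over CD44-negative α6+ cells, 1 was higher with a pseudocount of 0.1 (22.6% of all rows). The same count held with libraries of 6000 to 8000 detected rows (12.9%) and with TPM rescaled without spike-in and ribosomal rows (24.3%). Against Xist cells only, 2 were higher and 5 lower (17.3% and 6.54%). With the mean of log2 values, 22 were higher and 3 lower in CD44-negative α6+ over α6-negative cells (15.8% and 4.92% of all rows). That mean gave 7 lower after transfer over CD44-negative α6+ cells (3.11%). In CD44-negative α6+ over α6-negative cells, 3 were lower with keratinocyte-led cells only, where Gpx3 stood at 0.57 because the α6-negative cells left were at 0, and 5 were higher with Xist cells only.

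Rescaled TPM gave 4 higher after transfer over reporter-positive cells (7.41% of all rows) and 7 over CD44-negative α6+ cells (8.24%). It moved the median over all genes to -0.21 in reporter-positive over CD44+ reporter-negative cells, 0.20 in CD44+ reporter-negative over CD44-negative α6+ cells, -0.48 in CD44-negative α6+ over α6-negative cells and -0.09 after transfer over reporter-positive cells. With all libraries as labelled, 1 was higher and 2 lower after transfer over reporter-positive cells (2.89% and 3.35% of all rows). That set holds the repeats of reporter-positive cells. After transfer over CD44-negative α6+ cells, 5 were higher without plate OT_B (5.19% of all rows). There 8 were higher against Xist cells only (5.12%), and 7 lower against Y-linked cells only (5.22%). The following setting was added after seeing the data. With the 6 reporter-positive cells without a repeat under another label, 10 were higher and 9 lower over CD44-negative α6+ cells (15.4% and 41.02% of all rows), 8 lower over CD44+ reporter-negative cells (47.8%), and 9 higher after transfer (37.4%). There Hmox1 was -2.23, -1.32 and 2.64 over CD44-negative α6+ cells, over CD44+ reporter-negative cells and after transfer, Abcc1 -0.20, Gsta2 -0.40 and Srxn1 -0.37 over CD44+ reporter-negative cells, and Gsto1 0.050 after transfer; the cause was not tested. No paired analysis was possible because the labels number wells and pair no samples across groups. All other counts under the alternatives run were within 1.5 times. Unknown read depth limits statements on genes listed at 0.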
